A study of Rattus norvegicus with 21 samples.

Results

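The comparison set the pituitary transcriptome of DES-treated ACI rats against that of DES-treated COP rats, and it used the 4 arrays titled ACI DES-treated and the 4 titled COP DES-treated, 8 of the 21 arrays of the series. ACI (supplied by Harlan) and COP (Copenhagen, supplied by Charles River) are inbred rat strains, and diethylstilbestrol (DES) is a synthetic estrogen. At 9 weeks of age males were given a silastic implant with 5 mg of DES, and the 12 weeks of exposure ended with death at 21 weeks. The 3 ACI control and 3 COP control males carried an empty implant for the same time, and all animals were injected with BrdU, a thymidine analog, at 50 mg/kg 4 hours before death. RNA of the anterior pituitary was measured on 1-color Affymetrix Rat Genome 230 2.0 arrays. The 7 arrays of the BN (Brown Norway) strain entered the fit only to share its estimate of spread. The series design counted each array as a biological replicate, whereas the sample notes named fewer independent replicates than males, so that the p-values below measure the spread between these arrays.

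The anterior pituitary holds lactotrophs, which secrete prolactin, beside somatotrophs, gonadotrophs, thyrotrophs and corticotrophs, and folliculostellate cells, a non-hormonal network that includes the SOX2-positive progenitors. Estrogen drives lactotrophs to divide and to secrete prolactin, and in rats prolonged estrogen exposure yields pituitary hyperplasia and prolactin-producing tumors to a degree that depends on the inbred strain. The comparison asks which transcripts set 2 strains apart once both have had the same estrogen, and a second comparison of the control rats shows which of those were apart without it.

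Values below are deposited signals in arbitrary units, and differences are of mean log2(signal + 16), ACI minus COP, with the standard error (SE) and the Benjamini-Hochberg adjusted p of a limma model of all 21 arrays. A gene was called at an adjusted p under 0.05. Array medians were 119 to 125 in ACI DES and 127 to 137 in COP DES, and the median log2 difference over genes was -0.032. COP DES arrays 1 and 2 correlated at 0.9748 and every other pair of COP DES arrays at 0.9588 to 0.9615, beside 0.9686 to 0.9761 among ACI DES arrays, and arrays numbered 1 and 2 deviated from the group means in common, as did arrays 3 and 4. The tissue carried its defining hormone transcripts, with Prl and Gh1 among the highest signals, although Pomc, the corticotroph hormone precursor, lay under the floor of 67.0 units (the lowest 40th percentile of any array) in both DES groups. A group mean under that floor makes the size and rank of a difference uncertain.

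Of 21858 probe sets tested, 1024 were called, which is 4.68%, with 324 higher and 700 lower in ACI DES. Of 11750 genes, 662 were called (5.63%), 207 higher in ACI DES (1.76%) and 455 lower (3.87%), and 207 of the 662 differed by at least 2-fold. The balance of directions rested on scaling, because with arrays centered on their medians 57.3% of called probe sets were higher in ACI DES, against 31.6% as reported. It was 43.4% when only the 8 DES arrays were fitted. Among control rats 140 genes were called (1.19%), and these arrays are separate from the DES arrays. A total of 65 genes were called with the same sign in both comparisons, which is 9.82% of the genes called after DES and 46.4% of those called in controls. C2cd4b, a nuclear protein gene, was the 1 gene called with opposite signs, at 0.54 after DES and -1.11 in controls, and its call after DES was lost without ACI DES array 1, 2 or 3 or COP DES array 2 or 4 (adjusted p from 0.0501 to 0.11). The strain difference after DES minus that in controls was itself called for 76 genes (0.647%), of which 60 were also called after DES. The counts in controls and of the difference depended on single control arrays, and without ACI control array 1 or 2 or COP control array 1 or 2 they were 146 to 166 probe sets in controls, against 263 with all arrays, and 48 to 52 for the difference, against 115. The overlap was counted with all arrays. Without COP DES arrays 3 and 4 the calls after DES numbered 556 probe sets.

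**Figure D1:**
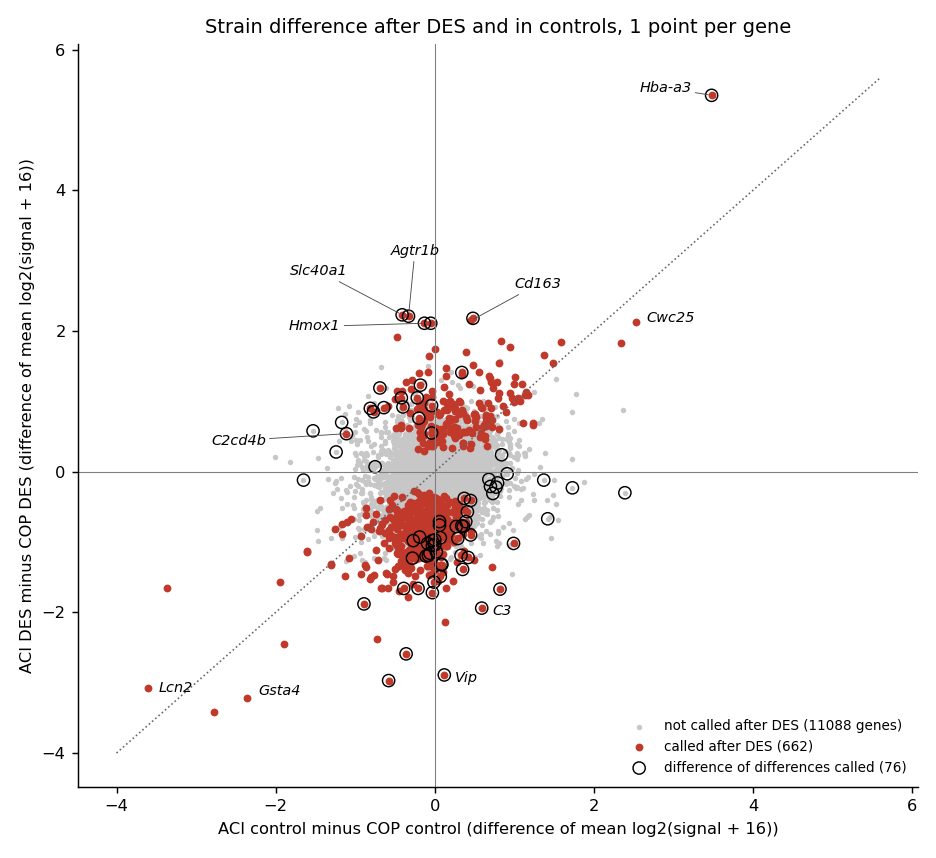
Each point is 1 of 11750 genes, with the strain difference in controls (ACI control minus COP control) on the x axis and after DES (ACI DES minus COP DES) on the y axis, both in mean log2(signal + 16). Red points are the 662 genes called after DES, circles the 76 genes whose 2 differences were called as unequal, and the dotted line marks equal differences, on which Lcn2, Gsta4 and Cwc25 lie close, whereas Vip, C3, Slc40a1, Hmox1 and Agtr1b lie far from it.

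Transcripts that handle heme and iron held several of the largest differences. Slc40a1, which encodes ferroportin, the only known cellular iron exporter, had signals of 837.6, 1061.0, 1128.3 and 1327.3 in ACI DES, against 251.3, 172.8, 214.4 and 235.7 in COP DES. All 4 ACI DES arrays were above every COP DES array, by a ratio of means of 4.98 (log2 difference 2.23, SE 0.156, adjusted p = 3.52e-09, limma), and all 3 probe sets of the gene were called. In controls the means were 346 in ACI and 465 in COP, so that the response to DES was of opposite sign in the strains, 1.60 in ACI and -1.04 in COP, and the difference between the strain differences was 2.64 (95% interval 2.14 to 3.13, adjusted p = 4.66e-06). Hmox1, which encodes heme oxygenase 1, the enzyme that opens heme and frees its iron, had 485.9, 694.9, 894.2 and 1293.8 in ACI DES, against 195.4, 160.1, 139.8 and 192.9 in COP DES. Its difference was 2.11 (adjusted p = 8.47e-07), and the control means were 93.7 in ACI and 105 in COP. Cd163, the scavenger receptor of macrophages for hemoglobin bound to haptoglobin, had 106.1, 97.5, 188.4 and 262.0 in ACI DES, against 31.9, 12.6, 10.7 and 39.1 in COP DES, where its mean was under the floor (difference 2.15, adjusted p = 0.00482). The ranges of these 3 genes did not overlap between the groups, as for 14.3% of all genes. The rule that named them required this.

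A list of 23 heme and iron genes was drawn up after these values were seen, and its counts are a description. Of its 17 tested genes 4 were called higher in ACI DES (Slc40a1, Hmox1, Cd163 and Spic), beside 1.76% of all genes, and 1 lower, beside 3.87%, with a median of 0.16 beside -0.032 for all genes. Spic, known in mice as the transcription factor of splenic red pulp macrophages, averaged 157 ± 49.3 in ACI DES and 45.7 ± 30.4 in COP DES (SD, n = 4 each), the COP DES mean being under the floor. Its call (1.64, adjusted p = 0.0252) was lost without ACI DES array 3 (adjusted p = 0.061), ACI DES array 4 (adjusted p = 0.102) or COP DES array 3 (adjusted p = 0.0974). Cp, which encodes the ferroxidase ceruloplasmin, was lower in ACI DES, at 486 ± 76.3 against 748 ± 79.6 in COP DES (SD, n = 4 each, difference -0.61, adjusted p = 0.00128). The other 12 tested genes were not called, among them the transferrin receptor gene Tfrc (-0.04), the biliverdin reductase genes Blvra (0.06) and Blvrb (0.18), and Hmox2 (0.06).

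Macrophage transcripts did not move as 1 group. Of 17 leukocyte and macrophage markers tested, 3 were called higher in ACI DES, beside 1.76% of all genes, none lower, and the list median was 0.06. Mrc1, the mannose receptor, had 364.4, 440.5, 647.0 and 826.7 in ACI DES, against 192.1, 161.3, 190.2 and 156.5 in COP DES (difference 1.55, adjusted p = 0.00153), and Cd14, a co-receptor for bacterial lipopolysaccharide, averaged 675 ± 91.7 in ACI DES and 352 ± 21.9 in COP DES (SD, n = 4 each, adjusted p = 0.00288). The general markers Ptprc (0.30), Cd68 (0.36), Aif1 (0.06), Csf1r (-0.22), Itgam (-1.04) and the complement C1q genes C1qa, C1qb and C1qc (-0.14, -0.16 and 0.10) were not called. The summed signal of the 17 markers ran from 23594 to 27731 in ACI DES and from 23264 to 31563 in COP DES. Outside the list, and chosen after their values were seen, Dab2, an endocytic adaptor, averaged 1148.3 ± 408 in ACI DES and 331 ± 55.6 in COP DES (difference 1.70, adjusted p = 8.75e-05), and Vcam1, an adhesion molecule, 947 ± 187 and 518 ± 45.8 in the same order (0.84, adjusted p = 0.00122). Pf4, which encodes platelet factor 4, was also higher in ACI DES (1.33, adjusted p = 0.00267), whereas Fcgr2b, the inhibitory receptor for immunoglobulin G, was lower, at 154 ± 50.4 in ACI DES against 441 ± 86.3 in COP DES (-1.46, adjusted p = 0.002). In whole-gland RNA, fewer cells of a type and less RNA per cell cannot be told apart.

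Red blood cell RNA was set beside these genes. Hba-a3, an alpha-globin gene with near-identical copies, had 13127.9, 10687.8, 14347.5 and 13710.2 in ACI DES, against 323.2, 349.3, 310.2 and 233.9 in COP DES, a ratio of means of 42.6 (difference 5.35, adjusted p = 2.28e-12). It was apart in controls as well, with means of 2604.4 in ACI and 222 in COP (3.48, adjusted p = 9.39e-08). Hbb, the beta-globin gene, did not follow it, at 14119.6 ± 6352.6 in ACI DES and 14252.3 ± 6464.4 in COP DES (SD, n = 4 each, difference -0.01, 95% interval -0.87 to 0.85). Of 5 red blood cell markers tested Hba-a3 alone was called, beside 1.76% of all genes called higher, and the median was -0.01. The part of blood content in the heme and iron differences was not tested.

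**Figure D2:**
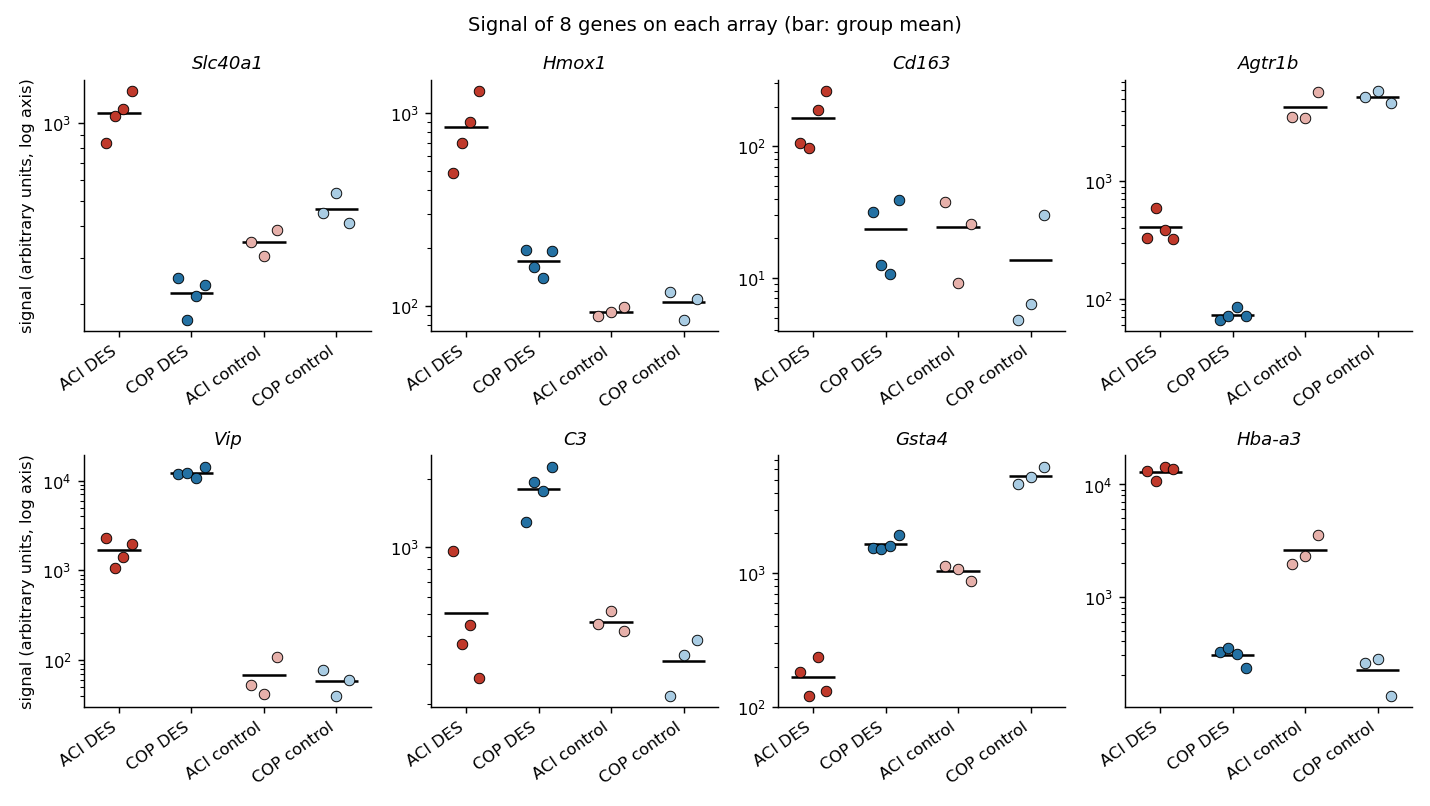
Deposited signal (arbitrary units, log axis) of 8 genes on each array of ACI DES, COP DES, ACI control and COP control, 1 point per array, with bars at the group means. For Slc40a1, Hmox1, Cd163, Agtr1b and Hba-a3 all 4 ACI DES points lie above all COP DES points, and for Vip, C3 and Gsta4 all lie below.

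Of 11 lactotroph markers tested 3 receptor genes were called higher in ACI DES, beside 1.76% of all genes, and the list median was -0.12. Agtr1b, which encodes the angiotensin II type 1b receptor, the main angiotensin receptor of the rat anterior pituitary, had 326.3, 587.7, 387.7 and 319.7 in ACI DES, against 65.7, 70.8, 84.3 and 71.1 in COP DES (difference 2.21, SE 0.179, adjusted p = 3.85e-08). Its control means were far higher, 4282.5 in ACI and 5250.7 in COP, so that DES lowered it in both strains, with log2 changes of -3.35 in ACI and -5.88 in COP. Trhr, the receptor for thyrotropin-releasing hormone, averaged 3748.9 ± 341 in ACI DES and 2108.5 ± 265 in COP DES (SD, n = 4 each, 0.83, adjusted p = 0.00311, 1 of 3 probe sets called). Drd2, the receptor through which dopamine restrains prolactin, was 0.52 higher (adjusted p = 0.0474), a call lost when any 1 of the 8 arrays was left out (adjusted p from 0.0611 to 0.143). The receptor genes Prlr (-0.41) and Vipr2 (-0.35) were not called. Prl itself averaged 41970.0 ± 4644.7 in ACI DES and 47690.4 ± 5754.4 in COP DES (SD, n = 4 each), and the difference of -0.18 was not called (95% interval -0.54 to 0.17, adjusted p = 0.702). These means lay within the range of the highest signals on single arrays, 36473.3 to 46054.1 in ACI DES and 40160.0 to 53572.9 in COP DES. Whether the arrays could show a larger difference at that level was not tested. Esr1, which encodes estrogen receptor alpha, was under the floor in both DES groups and differed by -0.04 (adjusted p = 0.986).

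Of the other hormone genes Lhb and Fshb were called lower in ACI DES. Lhb and Fshb, the gonadotropin beta subunits, averaged 230 ± 22.6 and 197 ± 15.1 in ACI DES, against 356 ± 23.5 and 273 ± 29.6 in COP DES (SD, n = 4 each), after having been at 16642.3 and 10582.7 in ACI controls and at 17302.8 and 11983.6 in COP controls. Lhb was called (-0.60, adjusted p = 0.00287). The call of Fshb (-0.43, adjusted p = 0.0295, 1 of 2 probe sets) was lost without ACI DES array 1, 2 or 3 or COP DES array 1, 2 or 4 (adjusted p from 0.0515 to 0.109). The arrays of the 2 groups did not overlap for Gh1 and Cga, the common alpha subunit, as for 14.3% of all genes. Gh1, Cga and Tshb were not called, with differences of -0.34, -0.34 and -0.51. These calls depended on the fit, since all 3 were called when only the 8 DES arrays were fitted, Cga and Tshb also with quantile normalization, and Tshb without COP DES array 1 (adjusted p = 0.0185). Over 21 alternatives the adjusted p ran from 0.024 to 0.757 for Gh1, from 0.00675 to 0.791 for Cga and from 0.00238 to 0.527 for Tshb. In the two-sided exact permutation test of 4 against 4 arrays the smallest p is 0.0286, which any groups without overlap reach. Gh1, Cga, Lhb and Fshb reached that p (0.0786 after adjustment over 11 genes). Myc, which encodes a growth-driving transcription factor, had 816.4, 730.4, 636.2 and 575.4 in ACI DES and 885.0, 654.0, 629.7 and 618.2 in COP DES (difference -0.01, 95% interval -0.48 to 0.46), and its noncoding neighbor Pvt1 differed by 0.24 (adjusted p = 0.743). A1bg was under the floor in both groups and was not in the main fit.

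Of 29 cell cycle genes tested, 10 were called higher in ACI DES and none lower, beside 1.76% of all genes called higher, the median was 0.66, and 28 of 29 differences were positive. In 18 of the 29 the 4 ACI DES arrays all lay above the 4 COP DES arrays, and in none all below. Of all 11750 genes 709 had ACI DES above and 966 had COP DES above, 14.3% in either direction. Cdk1, the kinase that starts mitosis, had 625.9, 559.4, 654.3 and 498.5 in ACI DES, against 327.0, 274.7, 313.7 and 285.5 in COP DES (0.92, adjusted p = 0.00254). Mki67, whose product is the proliferation marker Ki-67, had 650.1, 599.5, 689.1 and 711.7 in ACI DES, against 296.6, 298.3, 358.9 and 382.3 in COP DES (0.96, adjusted p = 0.0184). The cyclins Ccnb1, Ccnb2 and Ccna2 (0.81, 0.66 and 1.06), the DNA topoisomerase Top2a (0.68), the cytokinesis regulators Racgap1 and Kif20a (0.86 and 0.85), and the mitotic proteins Cenpf and Nusap1 (0.97 and 0.66) completed the called members, with adjusted p from 0.00322 to 0.0388. The calls of Cdk1, Ccnb1 and Racgap1 held with any 1 of the 8 arrays left out. Single arrays decided those of Mki67 (lost without ACI DES array 3 or 4 or COP DES array 1 or 2, adjusted p from 0.051 to 0.0584), of Ccna2 and Ccnb2 (lost without ACI DES array 1 or 2 or COP DES array 3, from 0.0597 to 0.0789) and of Top2a (0.0506 without COP DES array 3). Nusap1 lost its call when any 1 of the 8 arrays was left out (from 0.0609 to 0.111), Kif20a kept its call without COP DES array 1 but lost it without any other (from 0.0612 to 0.109), and Cenpf kept it without COP DES array 3 but lost it without any other (from 0.0516 to 0.128). In controls the list had no call and a median of -0.15. The median response to DES was 1.62 in ACI and 0.84 in COP. The difference of the strain differences was called for 2 of the 29 members, beside 0.647% of all genes, with Cdk1 (1.32, adjusted p = 0.0256) among them.

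The number of cell cycle calls varied more than the median difference. The median lay between 0.62 and 0.70 with 1 array left out at a time, but the calls fell to 5 without ACI DES array 1, ACI DES array 2 or COP DES array 3, and to 6 without ACI DES array 3, ACI DES array 4 or COP DES array 2. They numbered 2 without COP DES arrays 3 and 4 (median 0.59), 2 among arrays 1 and 2 alone and 0 among arrays 3 and 4 alone (medians 0.63 and 0.70). Genes of DNA replication (S phase) showed a smaller shift, with no call among 22 and a median of 0.20, although 20 of the 22 were positive. Cell division genes outside the list, Cks2 (1179.4 ± 153 in ACI DES and 618 ± 84.9 in COP DES, SD, n = 4 each, adjusted p = 0.00268), Pbk (433 ± 49.5 and 200 ± 17.2 in the same order, adjusted p = 0.000738) and Cdkn3 (538 ± 87.8 and 226 ± 26.4, adjusted p = 0.00117), encode a CDK-binding protein, a mitotic kinase and a CDK-binding phosphatase. Each was also called in the difference of the strain differences, beside 0.647% of all genes. Cdkn3 was named for that call, and Cks2 and Pbk were chosen after their values were seen, so these calls are a description. Fam83d, a spindle protein, was higher by 2.11 (266 ± 63.5 against 51 ± 25.6, adjusted p = 5.07e-05), with the COP DES mean under the floor.

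**Figure D3:**
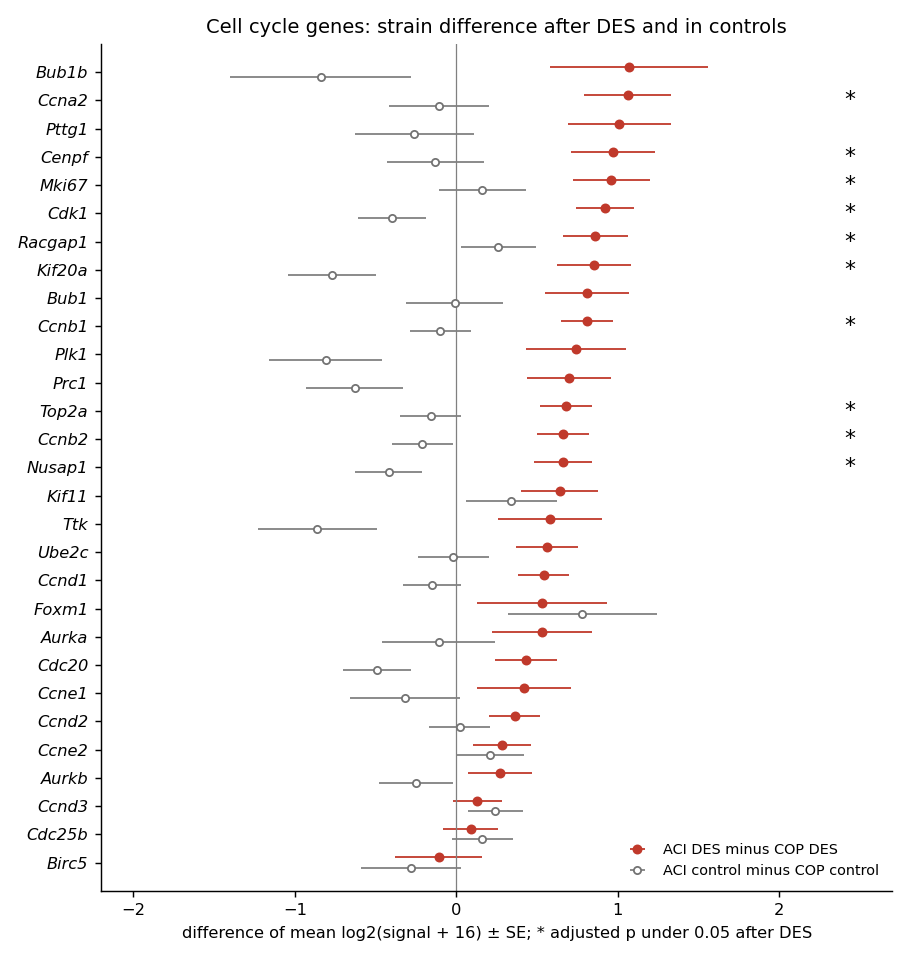
Strain difference of the 29 tested cell cycle genes in mean log2(signal + 16), with SE, after DES (red, ACI DES minus COP DES) and in controls (open, ACI control minus COP control). Stars mark the 10 genes called after DES, and 28 of the 29 red points lie right of 0, whereas the open points have a median of -0.15.

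The promoters of 4 of these genes are printed because the genes moved together and because genes of mitosis are known for a shared promoter layout, in which the cell cycle genes homology region (CHR) lies near the start and CCAAT boxes lie before it. The windows run from 250 bases before to 50 after the RefSeq start on build GRCr8, in the 5′ to 3′ sense of the gene, at chr20:19265043-19265342 (plus strand), chr8:79981609-79981908 (minus), chr10:84473044-84473343 (minus) and chr1:199952544-199952843 (minus). Capitals mark exact matches on either strand to CCAAT and to the CHR letters TTTGAA or TTCGAA, which overlap once in these windows, in Mki67. The 4 printed are those with 2 CHR matches, among the called genes with a promoter. Cenpf and Nusap1 had 1 each, after the start, and Ccnb1 and Kif20a had none. In Mki67 the last CCAAT match lies on the start side of the CHR matches, not before them.
Cdk1: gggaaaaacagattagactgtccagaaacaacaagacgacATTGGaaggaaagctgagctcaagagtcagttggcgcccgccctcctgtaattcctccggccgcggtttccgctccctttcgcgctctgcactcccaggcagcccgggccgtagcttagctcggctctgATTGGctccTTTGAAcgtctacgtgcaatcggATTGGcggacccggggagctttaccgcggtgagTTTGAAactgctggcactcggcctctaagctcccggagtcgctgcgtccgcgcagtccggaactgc
Ccnb2: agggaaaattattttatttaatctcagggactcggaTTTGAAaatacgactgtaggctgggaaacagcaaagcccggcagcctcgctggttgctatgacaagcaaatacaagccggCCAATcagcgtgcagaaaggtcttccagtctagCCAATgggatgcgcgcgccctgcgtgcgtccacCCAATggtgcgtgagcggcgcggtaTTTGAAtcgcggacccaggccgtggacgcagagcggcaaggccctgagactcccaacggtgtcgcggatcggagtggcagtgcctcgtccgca
Top2a: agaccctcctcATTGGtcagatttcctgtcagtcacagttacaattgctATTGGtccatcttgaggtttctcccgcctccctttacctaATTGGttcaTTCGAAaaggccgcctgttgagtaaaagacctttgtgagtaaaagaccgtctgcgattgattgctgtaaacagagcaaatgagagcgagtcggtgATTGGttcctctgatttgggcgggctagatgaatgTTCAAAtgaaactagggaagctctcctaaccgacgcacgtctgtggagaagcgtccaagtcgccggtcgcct
Mki67: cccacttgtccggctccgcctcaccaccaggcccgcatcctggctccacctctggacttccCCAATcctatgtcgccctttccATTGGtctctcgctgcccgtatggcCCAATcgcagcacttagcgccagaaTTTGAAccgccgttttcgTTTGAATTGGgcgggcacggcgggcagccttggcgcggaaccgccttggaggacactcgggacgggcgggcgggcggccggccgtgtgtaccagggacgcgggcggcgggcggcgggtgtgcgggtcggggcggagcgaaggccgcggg
Of the 10 called cell cycle genes 8 had a promoter in the table, and CCAAT was found in all 8 and a CHR match in 6 (75.0%), beside 37.5% and 19.7% of all 33469 promoters of that length. Over the 21 tested cell cycle genes with a promoter the shares were 81.0% and 66.7%. A match of letters is a description and not a measured binding site.

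Secreted peptides moved apart in both directions. Vip, the gene of vasoactive intestinal peptide, which can stimulate prolactin release, had 2296.2, 1055.1, 1403.6 and 1978.8 in ACI DES, against 11807.2, 12029.4, 10561.9 and 14205.1 in COP DES. The COP DES mean was 7.22 times that of ACI DES (difference -2.89, SE 0.232, adjusted p = 3.15e-08), while both control groups were close to or under the floor, at 68.6 in ACI and 59.3 in COP. DES thus raised Vip in both strains, by 4.35 in ACI and 7.36 in COP on the log2 scale, and the gap between these changes was -3.01 (95% interval -3.75 to -2.28, adjusted p = 0.000175). Guca2b, which encodes uroguanylin, had 878.9, 1601.4, 591.4 and 859.4 in ACI DES, against 3293.3, 2687.4, 3012.0 and 2200.6 in COP DES (-1.57, adjusted p = 2.57e-05). Nmb, which encodes neuromedin B, averaged 709 ± 206 in ACI DES and 1801.8 ± 548 in COP DES (SD, n = 4 each, adjusted p = 0.000276). Nppc, which encodes C-type natriuretic peptide, went the other way, with 7204.7, 6756.3, 8276.7 and 8013.3 in ACI DES, against 3547.6, 3061.4, 3393.7 and 2706.2 in COP DES (1.25, adjusted p = 0.00054), from control means of 82.8 in ACI and 61.1 in COP. Of 15 neuropeptide genes tested 6 were called lower in ACI DES, beside 3.87% of all genes, 1 higher, beside 1.76%, and the median was -0.56. The remaining lower calls were Calcb, a calcitonin gene-related peptide (-1.13), and the opioid precursors Penk and Pdyn (-0.61 and -0.87). Lower calls fell to 3 without COP DES array 3. The calls of Calcb and Penk (adjusted p = 0.0129 and 0.0154) were lost without it or without ACI DES array 4 (from 0.0555 to 0.0757), and that of Pdyn (adjusted p = 0.047) without ACI DES array 1, 3 or 4 or COP DES array 1, 2 or 3 (from 0.0898 to 0.148). Gal, which encodes the estrogen-induced peptide galanin, differed by -0.12 after DES (adjusted p = 0.816) and was called lower in ACI controls (-0.92, adjusted p = 0.00606), a call lost without ACI control array 2 or COP control array 1 or 2 (from 0.0605 to 0.0645).

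Of 21 estrogen-responsive genes tested, 2 were called higher in ACI DES, beside 1.76% of all genes, Nppc and Stc2, which encodes the glycoprotein hormone stanniocalcin 2 (734 ± 74.6 in ACI DES and 273 ± 59.4 in COP DES, SD, n = 4 each, adjusted p = 0.00618), and 1 lower, beside 3.87% of all genes, Vip, with a median of -0.03. The classical targets Pgr (0.06), Greb1 (0.20), Cgref1 (0.26) and Xbp1 (0.03) were not called. The 21 MYC targets, 23 genes of endoplasmic reticulum folding and secretory load, and 12 steroid receptors and coregulators held no call, with medians of -0.05, 0.02 and -0.02.

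Of 11 folliculostellate and progenitor markers tested, 4 were called lower in ACI DES, none higher, beside 3.87% of all genes called lower, and the median was -0.32. S100b, the calcium-binding protein used to stain folliculostellate cells, had 793.2, 564.3, 552.2 and 408.9 in ACI DES, against 1450.1, 1565.9, 1315.1 and 1076.6 in COP DES (-1.22, adjusted p = 1.04e-05), and Sox2, the progenitor transcription factor, had 227.2, 173.8, 164.4 and 140.6 in ACI DES, against 479.5, 493.3, 452.2 and 392.6 in COP DES (-1.30, adjusted p = 0.000215, 1 of 3 probe sets called). Anxa1, the glucocorticoid-induced annexin of these cells, differed by -0.99 (adjusted p = 0.000189). The call of Aldh1a2, an enzyme of retinoic acid synthesis (-0.78, adjusted p = 0.035), was lost without ACI DES array 2 or 3 or COP DES array 1 or 4 (adjusted p from 0.0534 to 0.13). Cdh1 (-0.45), Aldh1a1 (-0.30), Krt8 (-0.21), Hes1 (-0.32), Vim (-0.12), Krt18 (0.10) and Gfap (-0.11) were not called, and none of the 11 was called in controls. The summed signal of the list ran from 10945 to 12081 in ACI DES and from 13155 to 14268 in COP DES, without overlap. This was not particular to the list. The sums of the somatotroph, gonadotroph, thyrotroph, endothelial, and plasma and B cell lists were also lower in ACI DES without overlap. That of the fibroblast and matrix list was higher without overlap (13269 to 16057 in ACI DES, 12213 to 13147 in COP DES). Rfx4 and Sall1, transcription factor genes, and Aqp4, a water channel, were added after their values were seen and were also lower in ACI DES (-1.23, -1.19 and -1.02, adjusted p = 0.000115, 0.00165 and 0.00779).

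Genes of the Notch pathway, in which ligands on one cell switch on HES and HEY repressors in its neighbor, held 5 calls lower in ACI DES. Hey2 had 560.2, 595.9, 519.1 and 388.4 in ACI DES, against 1535.8, 1532.9, 1831.1 and 1674.6 in COP DES (-1.66, SE 0.144, adjusted p = 1.11e-07), Heyl averaged 92.6 ± 32.7 in ACI DES and 353 ± 91.2 in COP DES (-1.78, adjusted p = 3.82e-05, 1 of 2 probe sets), and Hey1 186 ± 47.4 and 367 ± 40.6 in the same order (SD, n = 4 each, -0.95, adjusted p = 0.000768). The ligand gene Jag1 (-1.19, adjusted p = 0.0127) was no longer called without COP DES array 3 (-0.92, adjusted p = 0.0632), and the receptor gene Notch1 (-0.73, adjusted p = 0.0252) was not called without ACI DES array 4, COP DES array 1 or COP DES array 4 (adjusted p from 0.0705 to 0.113). In a list of 21 Notch pathway genes drawn up after these values were seen, 18 were tested, 5 were called lower, beside 3.87% of all genes, 1 was called higher, and the other 12 were not called, with a median of -0.44. The higher one was Dtx1, a ubiquitin ligase gene that was also called in controls (0.67 after DES and 1.23 in controls), and its call after DES was lost without ACI DES array 3 or 4 or COP DES array 1 or 3 (adjusted p from 0.0627 to 0.0825). Among those not called were Hes1 (-0.32), Hes5 (0.02), Jag2 (0.42), Notch3 (-0.02) and Rbpj (-0.14). The median of 10 endothelial markers was -0.28 with no call, and their summed signal ran from 3032 to 3240 in ACI DES and from 3452 to 4220 in COP DES. The part of cell composition in the Notch differences was not tested.

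Of the gonadotroph markers other than the hormone genes, Foxl2, Gnrhr and Inhbb were called lower in ACI DES. Foxl2, a transcription factor of gonadotrophs, averaged 202 ± 65.8 in ACI DES and 439 ± 67.3 in COP DES (-1.09, adjusted p = 0.000988), Gnrhr, the gonadotropin-releasing hormone receptor, 248 ± 36.4 and 500 ± 74.9 in the same order (-0.96, adjusted p = 0.00534, both probe sets), and Inhbb, a subunit of activin and inhibin, 261 ± 17.5 and 447 ± 78.5 (SD, n = 4 each, -0.73, adjusted p = 0.00427). Of 11 gonadotroph markers tested 5 were called lower in ACI DES, beside 3.87% of all genes, and none higher, with a median of -0.56 after DES and of 0.00 in controls. Nr5a1 (-0.56), Gata2 (-0.65), Inhba (-0.35), Fst (-0.20), Egr1 (0.44) and Chga (0.01) were not called. Gpha2, a glycoprotein hormone subunit gene chosen after its values were seen, was at 1121.9 ± 260 in ACI DES and 2435.3 ± 460 in COP DES (-1.12, adjusted p = 0.000147). The log2 response of Gnrhr to DES was -3.38 in ACI and -2.37 in COP. Without COP DES arrays 3 and 4 the list held 3 lower calls. Among other cell types, the thyrotroph list held 1 call of 4 (Isl1, -1.56), the somatotroph list 1 of 7 (Dlk1, -0.84, not called without ACI DES array 3 or 4 or COP DES array 1 or 2, adjusted p from 0.0596 to 0.0825), the neural lobe and nerve list 1 of 7 (Nefl, -0.98), and the corticotroph and melanotroph list none of 6.

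**Figure D4:**
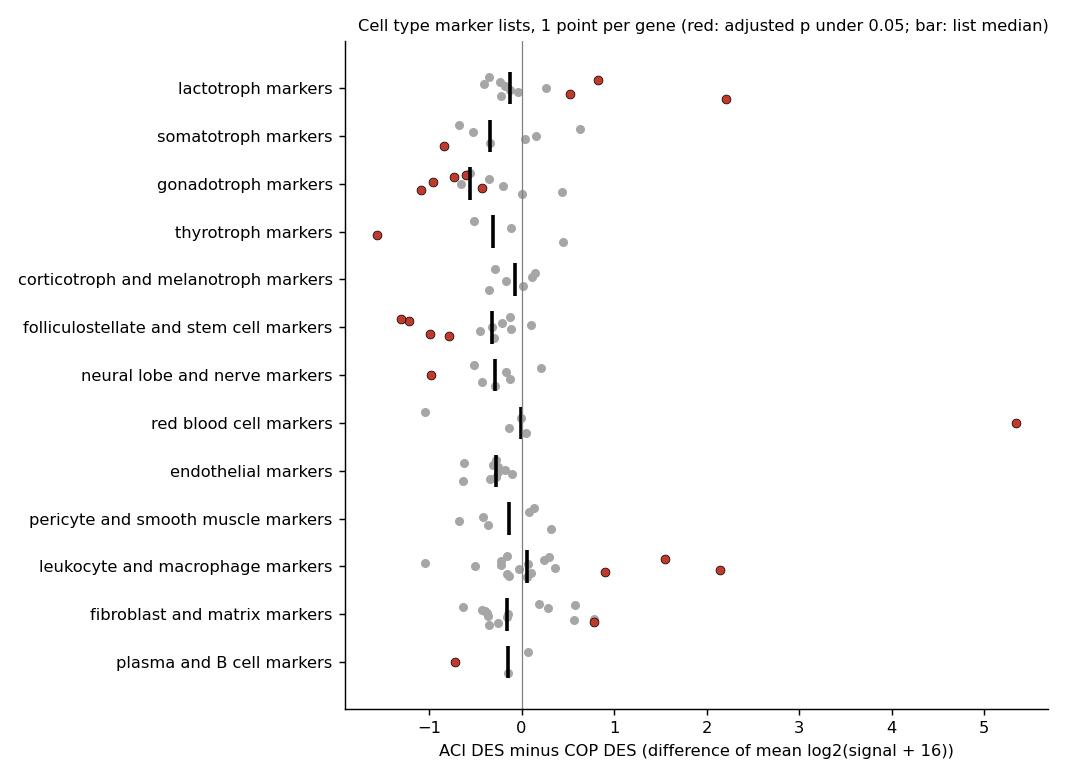
Difference ACI DES minus COP DES in mean log2(signal + 16) for each tested gene of 13 cell type marker lists, with called genes in red and a bar at the list median. The gonadotroph and folliculostellate lists lie mostly left of 0 (medians -0.56 and -0.32), and the lactotroph and macrophage lists hold a few red points to the right with medians of -0.12 and 0.06.

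Enzymes of glutathione conjugation and detoxification included a difference present with and without DES. Gsta4, a glutathione transferase that clears lipid peroxidation products, had 182.8, 121.2, 235.0 and 132.1 in ACI DES, against 1553.1, 1529.6, 1611.0 and 1944.1 in COP DES (-3.22, SE 0.147, adjusted p = 2.28e-12), and 1033.4 and 5388.3 as means in ACI and COP controls (-2.36, adjusted p = 1.46e-08). Gstm1, Gstm2 and Gpx2, further enzymes that use glutathione, were lower in ACI DES (-1.07, -1.47 and -1.11) without a call in controls. Akr1b8, an aldo-keto reductase, was higher, at 109.5, 243.3, 337.7 and 579.6 in ACI DES, against 69.2, 72.7, 45.5 and 99.1 in COP DES (1.75, adjusted p = 0.00374). Of 17 genes tested 4 were called lower, beside 3.87% of all genes, and 1 higher, beside 1.76%, with a median of -0.31.

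Of the 24 genes with the largest non-overlapping differences, 8 were also called in controls, beside 1.19% of all genes. The difference of the strain differences was called for 11, beside 0.647% of all genes. That difference uses the same DES arrays that picked the 24 genes, so the 11 follow partly from the choice. Besides Hba-a3 and Gsta4, the 8 shared with controls were Pik3r1, a regulatory subunit of phosphoinositide 3-kinase (334 ± 84.9 in ACI DES and 85.0 ± 34.8 in COP DES, SD, n = 4 each, 1.83), Cwc25, a spliceosome-associated factor (391 ± 52.4 and 81.3 ± 37.4 in the same order, 2.13), Abca1, the cholesterol exporter (203 ± 49.9 and 1154.8 ± 71.7, -2.45, 2 of 4 probe sets), Il33, an alarmin cytokine (108 ± 12.3 and 442 ± 68.4, -1.88), and Lcn2, the siderophore-binding lipocalin (20.2 ± 12.6 and 296 ± 129, -3.08), with LOC100910237 (-3.42). Lcn2 and LOC100910237 were under the floor in ACI DES, and the control call of Pik3r1 (2.34, adjusted p = 0.0129) was lost without ACI control array 3 or COP control array 1 or 2 (from 0.081 to 0.13). Among those not called in controls, Lama4, a laminin subunit, had 1406.1, 1224.0, 1525.7 and 1354.0 in ACI DES, against 360.2, 303.8, 215.2 and 301.3 in COP DES (2.18, adjusted p = 7.22e-08), and Krt19, a keratin, averaged 74.1 in ACI DES and 405 in COP DES (-2.38, adjusted p = 0.000363). C3, the central complement component, had 955.0, 370.5, 449.2 and 261.4 in ACI DES, against 1289.3, 1939.4, 1772.6 and 2276.3 in COP DES (-1.94, adjusted p = 8.9e-05), and it responded to DES in COP by 2.50 but not detectably in ACI (-0.03, adjusted p = 0.952). Rnf152, a ubiquitin ligase (1.86), and LOC102553902 (1.92) were higher in ACI DES with COP DES means under the floor, and 6330403K07Rikl (-2.97), Ces1d, a carboxylesterase (-2.59), and Mybpc1, a myosin-binding protein (-2.14), were lower with ACI DES means under it. Pstpip2, an actin-associated adaptor (1.84, adjusted p = 0.0233), was not called without ACI DES array 1, 2 or 3 or COP DES array 3 or 4 (adjusted p from 0.0553 to 0.0873).

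Among genes with both means above 500, the largest differences included genes of signaling and metabolism. Ip6k2, an inositol hexakisphosphate kinase, averaged 1834.9 ± 234 in ACI DES and 575 ± 116 in COP DES (1.66, 1 of 2 probe sets), Stat3, a transcription factor of cytokine signaling, 2015.7 ± 246 and 782 ± 126 in the same order (1.35, 1 of 2 probe sets), and Isca1, an iron-sulfur cluster assembly factor, 3463.9 ± 100 and 1589.4 ± 225 (SD, n = 4 each, 1.13, both probe sets). Each was also called in controls, at 1.37, 1.01 and 1.15, although the control call of Stat3 was lost without array 1 or 2 of ACI controls or array 2 or 3 of COP controls (adjusted p from 0.0624 to 0.107). Dsel, an enzyme of dermatan sulfate synthesis, was higher by 1.01 and Ibtk, an inhibitor of a tyrosine kinase, by 1.28. Parg, which degrades poly(ADP-ribose), was lower in ACI DES, at 753 ± 67.7 against 2152.1 ± 294 in COP DES (-1.49), and was lower in ACI controls as well (-1.13). S100a6, a calcium-binding protein, was lower (-1.44, adjusted p = 0.0132), a call lost without COP DES array 4 (adjusted p = 0.0551), and Apoe, the lipid carrier, chosen after its values were seen, averaged 2718 ± 417 in ACI DES and 6826.1 ± 953 in COP DES (-1.33, adjusted p = 3.69e-06). Igfbp5, a binding protein of insulin-like growth factors, had 3421.8, 2957.1, 2377.9 and 2345.4 in ACI DES, against 6011.1, 5854.3, 6489.7 and 5882.2 in COP DES (-1.14, SE 0.108, adjusted p = 4.02e-07), with 1 of its 5 probe sets called.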

How the data were processed

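Values were the deposited probe-set intensity signals of 21 arrays, which the authors had scaled on each array to a trimmed mean of 500.1 to 500.2. For the summarization step, software is not given in the sources used here. All 57 Affymetrix control probe sets were left out. Signals were taken as log2 after adding 16, and testing required a signal above the array's 40th percentile on 3 or more arrays. A model of 6 group means was fitted with limma 3.58.1 (R 4.3.3) with a variance trend, and two-sided p-values were adjusted by Benjamini-Hochberg over all probe sets of a comparison. Probe sets with 1 gene symbol in the platform annotation stood for genes (20826 had 1 symbol, 436 several and 9780 none), 1 per gene by the highest mean. Promoters were those of RefSeq on GRCr8. The fit was tested on simulated data.

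Genes were named by rule: the 12 largest differences of each sign among called genes whose DES arrays did not overlap, the 6 largest of each sign with both means above 500, the 6 largest of each sign called in the DES comparison and in the difference of strain differences, Myc, Pvt1, A1bg, Esr1 and the hormone genes, and up to 4 members of each of 39 lists (595 genes, 498 tested) with the smallest adjusted p. Further genes and 3 lists were chosen after values were seen. The comparison, the genes and the lists were all chosen with earlier results of these data known. Precision was limited by the number of arrays.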

Additional observations from a re-analysis of the deposited data

Results flagged for a closer look

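For 21 of the 117 genes followed, the strain difference after DES and that in controls were called as unequal in the limma model, beside 0.647% of all genes. The 117 include genes named by rule for that call and genes chosen after values were seen, so the count is a description. The value given is the strain difference after DES minus that in controls, in mean log2(signal + 16). It was positive for Slc40a1 (2.64), Agtr1b (2.53), Hmox1 (2.24), Fam83d (2.16), Cdkn3 (1.87), Hba-a3 (1.87), Lama4 (1.70), Cks2 (1.56), Pbk (1.47), Cdk1 (1.32) and Msrb1 (1.07), a methionine sulfoxide reductase gene. It was negative for Vip (-3.01), C3 (-2.52), Vgll2 (-2.49), 6330403K07Rikl (-2.39), Ces1d (-2.23), Defb24 (-2.01), Nmb (-1.41), Hey2 (-1.27), Igfbp5 (-1.16) and Il33 (-0.98). Vgll2, a transcription cofactor, had a mean under the floor in ACI DES, and its call (adjusted p = 0.0308) was lost without each of 8 single arrays (adjusted p from 0.0577 to 0.1). Calls were also lost for Fam83d without ACI DES array 4, ACI control array 1 or 2 or COP control array 1 (0.0523 to 0.0876), for Hba-a3 without array 1 or 2 of either control group (0.0724 to 0.0791), for Defb24, a beta-defensin, without ACI control array 1 or 2 or COP control array 3 (0.0585 to 0.0759), and for 6330403K07Rikl without COP control array 1 (0.0586).

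In 8 of 234 groups of 4 arrays, 1 array lay apart from the others by a share of the range above Dixon's 95% critical value for 4, which chance does in about 1 of 20 groups. The share of the range was 0.936 for 6330403K07Rikl (COP DES array 4, 605.8), 0.937 for Ces1d (ACI DES array 1, 5.5), 0.844 for Myc (COP DES array 1, 885.0), 0.929 for Cd14 (ACI DES array 3, 812.7), 0.832 for Fgfr3 (ACI DES array 3, 190.7), 0.844 for Hey1 (ACI DES array 4, 116.4), 0.901 for Cyp26a1 (COP DES array 4, 347.0) and 0.869 for Apoe (ACI DES array 3, 2098.2).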

How the results depend on the processing

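The comparison of ACI DES with COP DES gave 1024 called probe sets, and 471 among arrays numbered 3 and 4 only and 556 without COP DES arrays 3 and 4 (an alternative chosen after seeing the data), with fewer arrays in both. Leaving out 1 array at a time gave 756 to 885. The share higher in ACI DES was 57.3% with median centring, which moved the median difference of all probe sets to 0.082, against -0.024 as reported. The comparison of controls gave 263, and 412 with the array numbers 1 and 2 against 3 and 4 as a block and 1431 among numbers 1 and 2 only, with a range of 146 to 252 when 1 array was left out (163 and 166 without ACI control array 1 or 2, 160 and 146 without COP control array 1 or 2). Numbers 3 and 4 leave 1 array in each control group, so no count is given for them in the comparison of controls. Their count for the difference of strain differences rests on the same single control arrays, and no conclusion is drawn from it. The difference of strain differences gave 115, and 252 with the replicate block, 283 with the array number block, 449 and 21 among numbers 1 and 2 and numbers 3 and 4 (again with 1 array in each control group), 41 without COP DES arrays 3 and 4, and 48 to 136 when 1 array was left out. It was 48 and 50 without array 2 of ACI or COP controls, 52 and 51 without their array 1. The causes were not tested.

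Replicate numbers were shared by the groups, and arrays of the same number correlated in their deviations at 0.0993 to 0.114, so they were taken to share only a number. The replicate block raised the DES calls to 1393 and the control calls to 377, and the array number block raised the DES calls to 1456. Both blocked fits, by replicate and by array number, called Tshb (-0.51). Not every array correlated best with its own number.

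Of 3011 values of named genes under alternatives, 2655 kept their direction and side of the threshold, 327 kept the direction but were no longer called, 11 became called and 18 changed sign. These counts score the exact permutation test by its unadjusted p of 0.0286, which was 0.0786 after adjustment. Gh1 and Cga thus count as having become called in that test, and Lhb and Fshb as still called. The sign changes concerned genes that were not called. Myc was at 0.09 with median centring, 0.02 among arrays 1 and 2, and -0.09 to 0.11 with 1 array left out. Esr1 was at 0.01 with 64 added, 0.07 with quantile normalization, 0.06 with median centring, 0.29 among arrays 1 and 2, and -0.36 to 0.28 with 1 array left out (positive without ACI DES array 3 or 4 at 0.17 and 0.28 and without COP DES array 1 or 2 at 0.13 and 0.10). Pomc was at -0.10 among arrays 3 and 4 and -0.25 to 0.57 with 1 array left out. Of 672 list medians 112 moved by more than 1 SD between arrays. Calls of neuropeptides lower in ACI DES ranged from 3 to 6 of 15 with 1 array left out.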

Other observations

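A list of retinoid genes was drawn up after values were seen. Of 18 tested, 5 were called lower in ACI DES, beside 3.87% of all genes, and none higher, 4 of the 18 differences were positive, and the median was -0.31. Cyp26a1, an enzyme that degrades retinoic acid, averaged 81.0 ± 51.7 in ACI DES and 251 ± 64.2 in COP DES (SD, n = 4 each, -1.70, adjusted p = 0.00821), and Cyp26b1, Aldh1a2, Crabp1 and Crabp2 differed by -0.84, -0.78, -1.29 and -1.14. Only 1 of the 5 calls was left with quantile normalization or median centring, 1 without ACI DES array 2 or 3 or COP DES array 1, 2 without ACI DES array 4 or COP DES array 2 or 4, 3 without COP DES array 3, and none without COP DES arrays 3 and 4.

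The BN DES arrays, which entered no comparison here, did not take 1 side. Slc40a1 and Hmox1 averaged 177 and 135 in BN DES, Vip 486 and Nppc 641, each below both other DES groups. Agtr1b averaged 245, Lama4 1086.4, C3 1369.8 and Hba-a3 4195.8, all between ACI DES and COP DES, and Cdk1 153, close to its mean of 144 in BN controls. Gsta4 (2399.6), Hey2 (1816.3) and Igfbp5 (8407.1) were above both. These values were not tested.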
